A study of Mus musculus with 21 samples.

Results

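The genes described here carry peptides from the cytosol onto MHC class I molecules. The set was given by name as Tap1, Tap2, Tapbp, B2m, Psmb8, Psmb9, H2-K1 and H2-D1. Of these 8 names, 6 have a row in each of the 3 deposited tables, which together hold 12404 genes, and the immunoproteasome genes Psmb8 and Psmb9 were not analysed here. The data are RNA sequencing values of 21 mouse libraries, 7 in each table. The study set transduced mouse embryonic fibroblasts (MEFs) beside cells reprogrammed with Sox2, Klf4, Oct4 and c-Myc (SKOM), in which Dnmt1 and p53 had been knocked down and Dnmt1 or Tet1CD had been expressed. Dnmt1 maintains DNA methylation, and Tet1 oxidises 5-methylcytosine, a reaction for which vitamin C is known as a cofactor.

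All fibroblasts came from ICR embryos of day 13.5 at passage 2, and every library was made from cells that received retrovirus for 48 h. The MEF table holds cells with the Tet1CD construct, with shp53, with shp53+shDnmt1, with shDnmt1, with Dnmt1 and with the control combination Flag+shLuc, and a further Flag+shLuc library titled 5C, a term the labels do not explain. The value column of the 5C library is headed X5CDay4, which names a day, and the other MEF headers name none. The SKOM cells were harvested on day 5 in medium with vitamin C (Vc+) or without it (Vc-). Each medium has 7 libraries, which carry Tet1CD, Tet1CD+Dnmt1, Tet1CD+shDnmt1, Dnmt1, shDnmt1, shp53+shDnmt1 and Flag+shLuc. In SKOM cells shp53 was present only together with shDnmt1. Each construct combination has 1 library per setting, so 3 libraries with Tet1CD stand against 4 without it in each medium, and p-values measure the spread among libraries that also differ in their other constructs. The labels do not say whether the libraries came from separate cultures, so this spread may be technical.

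MHC class I molecules present fragments of a cell's own proteins to cytotoxic T cells. Proteasomes make the fragments, and the TAP transporter carries them into the endoplasmic reticulum. There tapasin holds the transporter next to an empty class I molecule, which is a heavy chain paired with beta-2-microglobulin. Fibroblasts are known to make little class I, and interferons raise many genes of this route, in part through IRF1 and the coactivator NLRC5.

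The deposited values are whole numbers that the authors had normalized within each table, so that the libraries of a table share nearly the same sorted list of values (the same median, 226 in Vc+, 180 in Vc- and 208 in all MEF libraries but 5C, where it is 203). They carry no sequencing depth, and a level is in effect a gene's rank in its library. Tet1 followed the labels in SKOM cells and Trp53 did so in MEFs. Tet1 had 2503 to 3129 in Vc+ and 2140 to 2632 in Vc- with Tet1CD, against at most 88 and 19 without it. Trp53 had 157 and 186 in MEFs with shp53, against 1008 in MEF control. In SKOM cells the limma fit over both media called Trp53 neither higher nor lower with shp53. That fit called 0.00934% of all genes lower. Tet1 had no row in the MEF table. Dnmt1 was lower with shDnmt1, at 1154 in Vc+, 527 in Vc- and 208 in MEFs, against 2346, 984 and 957 in Flag+shLuc. The libraries labelled Dnmt1 had 2381, against 2346 in the control, in Vc+, 1001 against 984 in Vc- and 975 against 957 in MEFs. These values do not show the expressed Dnmt1, so these libraries are called by their label. Dnmt1 was also low with Tet1CD in Vc+, at 655 to 1224, against 1154 to 2381 without. Fibroblast markers summed to 35569 to 59535 over 10 genes in Vc+, 38216 to 45469 over 9 genes in Vc- and 89806 to 161286 over 10 genes in MEFs. In SKOM cells Vim, Fn1 and the collagen genes carried these sums, while Lum had 0 to 91 in Vc+ and 1 to 58 in Vc- and Pdgfra 20 to 32 in Vc+. No lymphocyte marker had a row in any table. Of the listed markers of macrophages and leukocytes, Adgre1, Tyrobp, Fcer1g, Cd14, Spi1 and Aif1 had no row in any table. Csf1r and Mpeg1 had a row only in the MEF table. The markers with a row moved with Tet1CD, as given beside the results.

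Of the 6 genes, 5 lie on chromosome 17, in the major histocompatibility complex and its flank, within 1.35 Mb (build mm10). Tapbp is at chr17:33915899-33920415, H2-K1 at chr17:33996017-34000289 on the minus strand, Tap1 at chr17:34187553-34197225, Tap2 at chr17:34203527-34216321 and H2-D1 at chr17:35262730-35267499, whereas B2m is at chr2:122147686-122153083. All are protein coding. The promoters of the chains and of Tap1 are shown because class I genes are known to share an upstream module of interferon, cyclic AMP and CCAAT elements. They are the RefSeq windows of build GRCm38.p6, 250 bases before to 50 after the annotated start, for B2m chr2:122147437-122147736 on the plus strand, H2-K1 chr17:34000298-34000597 on the minus strand, H2-D1 chr17:35262844-35263143 on the plus strand and Tap1 chr17:34187306-34187605 on the plus strand. Capitals mark matches on either strand to GAAANNGAA, GAANNGAA, GGGATTCCC, TGACG or ATTGG, and no match overlapped another.
B2m promoter: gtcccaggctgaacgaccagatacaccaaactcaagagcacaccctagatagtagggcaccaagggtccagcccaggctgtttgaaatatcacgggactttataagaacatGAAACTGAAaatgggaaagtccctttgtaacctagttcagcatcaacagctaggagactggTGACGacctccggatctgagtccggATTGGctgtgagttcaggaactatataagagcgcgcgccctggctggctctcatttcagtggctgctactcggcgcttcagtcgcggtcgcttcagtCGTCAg
H2-K1 promoter: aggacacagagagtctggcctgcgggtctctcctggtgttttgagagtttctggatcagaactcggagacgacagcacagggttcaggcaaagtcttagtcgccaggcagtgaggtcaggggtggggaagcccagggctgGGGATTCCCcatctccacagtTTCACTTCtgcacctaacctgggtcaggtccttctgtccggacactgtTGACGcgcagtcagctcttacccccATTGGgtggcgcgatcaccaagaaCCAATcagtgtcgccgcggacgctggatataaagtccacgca
H2-D1 promoter: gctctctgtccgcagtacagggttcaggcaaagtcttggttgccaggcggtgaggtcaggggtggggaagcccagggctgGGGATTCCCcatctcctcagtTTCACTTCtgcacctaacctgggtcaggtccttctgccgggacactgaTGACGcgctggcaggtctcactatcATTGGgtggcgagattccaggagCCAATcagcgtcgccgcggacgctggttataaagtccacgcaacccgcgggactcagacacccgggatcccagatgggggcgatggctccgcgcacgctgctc
Tap1 promoter: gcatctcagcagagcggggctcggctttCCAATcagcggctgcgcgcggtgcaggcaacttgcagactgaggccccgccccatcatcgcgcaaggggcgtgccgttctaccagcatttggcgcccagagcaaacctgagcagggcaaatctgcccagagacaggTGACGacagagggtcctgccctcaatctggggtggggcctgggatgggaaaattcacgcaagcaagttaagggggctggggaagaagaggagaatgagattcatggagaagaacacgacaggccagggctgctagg
The window of B2m held GAAANNGAA, the core of the interferon-stimulated response element, starting at position -139. That motif occurs in 8.56% of all 32851 RefSeq windows of this length. The windows of H2-K1 and H2-D1 both held GGGATTCCC, the core of the kappa B site known from class I genes, which 116 of the 32851 windows hold (0.353%). Both also held GAANNGAA (20.1% of windows), TGACG (20.8%) and 2 matches to ATTGG (37.4%). The Tap1 window held TGACG at -86 and ATTGG at -222 and neither interferon-type motif. The starts of Tap1 and Psmb9 lie 226 bp apart on opposite strands, and their windows share 275 bp. CpG dinucleotides numbered 14 in the B2m window, 14 in H2-K1, 19 in H2-D1 and 15 in Tap1, against a median of 7 over all windows. Each of these numbers lies between the quartiles of all windows, 3 and 20. These matches are letters in a sequence, and no binding or methylation was measured in the tables used here.

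Divided by the length of the listed transcript, B2m had by far the highest level of the 5 genes compared, with a median of 3426 per kb in Vc+, 3856 per kb in Vc- and 9355 per kb in the MEF table. H2-D1 followed with 408 per kb in Vc+, 337 per kb in Vc- and 349 per kb in MEFs. H2-K1 had 183, 114 and 189 per kb, Tap1 50.5, 33.5 and 32.2 per kb, and Tap2 18.9, 10.7 and 22.1 per kb in the same order. Both transporter genes thus stood far below the chains, and Tap2 was the lowest of the 5 in each table. Tapbp was left out of this order because its listed transcript has only 413 nucleotides. Reads of the heavy chains can be shared with their relatives: 14.3% of the 50-base stretches of the H2-D1 transcript and 9.07% of those of H2-K1 also occur in other genes, 7.17% of H2-K1 in H2-D1 itself. The levels of H2-K1 and H2-D1 are uncertain to that extent. The libraries come from ICR mice, whose class I alleles may differ from the reference, and the part of that in the heavy chain levels was not tested.

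All 6 genes rose with Tet1CD in SKOM cells. Over the 14 SKOM libraries the log2 difference with Tet1CD ran from 0.49 for H2-K1 to 0.94 for Tap2, and each of the 6 passed limma's test at an adjusted p under 0.05. Of all 10711 genes tested, 20.3% rose and 24.9% fell. The median of the 6 was 0.58, against -0.04 over all genes tested. In a bulk sample a change in how many cells express a gene and a change per cell cannot be told apart.

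Macrophage and leukocyte markers were also higher with Tet1CD. Of the 13 listed, 5 had a row in Vc+ and all 5 rose (20.7% of all genes did), and 4 had a row in Vc- and all 4 rose (7.25% did). Summed, they came to 2449 to 3250 in Vc+ cells carrying Tet1CD, against 338 to 493 in those lacking it. In Vc- it was 633 to 735 with Tet1CD, against 302 to 400 without. Ptprc, the pan-leukocyte gene CD45, had 45 to 50 in Vc+ with Tet1CD, against 0 to 27 without, and was listed at 0 in the Flag+shLuc library of Vc+ and the shp53+shDnmt1 library of Vc-. Since a row needs at least 32 in some library, Ptprc had its Vc+ row only through the libraries with Tet1CD. The counts of markers that rose are partly set by that minimum. The other markers with a row, among them Cd68, were above 0 in every SKOM library. The part of these markers in the class I result was not tested. Of 9 fibroblast markers 5 rose over both media and none fell, where 20.3% of all genes rose and 24.9% fell. Among these markers Col1a2 rose by 0.82 ± 0.16 (SE). The separate fits called 5 of 10 higher and 1 lower in Vc+, and 2 of 9 higher and 1 lower in Vc-. Col1a2 had 13581 in each Vc+ library with Tet1CD, against 3912 to 7099 without, and Dcn had 217 to 227 in Vc- with Tet1CD, against 234 to 335 without. The sums were 50274 to 59535 in Vc+ with Tet1CD, against 35569 to 58686 without, and 44330 to 45469 in Vc- with Tet1CD, against 38216 to 44094 without, and the part of these markers was not tested either.

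The transporter genes differed from each other. Tap1, which codes for the first subunit of the transporter, had values of 271 with Tet1CD, 250 with Tet1CD+Dnmt1 and 330 with Tet1CD+shDnmt1 in Vc+, against 149 in Flag+shLuc, 129 in that labelled Dnmt1, 108 with shDnmt1 and 75 with shp53+shDnmt1. In Vc- it had 101, 99 and 106 with Tet1CD in the same order, against 93, 109, 84 and 53. The groups were far apart in Vc+ and overlapped in Vc-, where the Dnmt1 library exceeded all 3 with Tet1CD. In the Vc+ fit the difference was 1.11 ± 0.16 (log2, SE; adjusted p = 0.00329), in Vc- 0.10 ± 0.11 (0.586), and over both media 0.61 ± 0.18 (0.0176). The shp53+shDnmt1 library was the lowest in both media.

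Tap2, which codes for the second subunit, had 131, 125 and 115 in Vc+ with Tet1CD, Tet1CD+Dnmt1 and Tet1CD+shDnmt1, against 65 in Flag+shLuc, 46 in that labelled Dnmt1, 43 with shDnmt1 and 38 with shp53+shDnmt1. In Vc- it had 47, 62 and 55 with Tet1CD, against 31, 37, 29 and 30. No library without Tet1CD reached one with it in either medium. Its increase was the highest of the 6, with 1.21 ± 0.15 in Vc+ (log2, SE; limma adjusted p = 0.00186), 0.67 ± 0.15 in Vc- (0.0332) and 0.94 ± 0.15 over both (0.000718). At these low values the added constant of 5 understates the change.

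Tapbp codes for tapasin, which links the transporter to the waiting class I molecule and edits its peptide. It had 722, 680 and 673 in Vc+ with Tet1CD, Tet1CD+Dnmt1 and Tet1CD+shDnmt1, against 389 in Flag+shLuc, 363 in that labelled Dnmt1, 470 with shDnmt1 and 365 with shp53+shDnmt1. In Vc- it had 315, 329 and 288 with Tet1CD, against 235, 227, 248 and 231. The groups did not overlap in either medium. The difference was 0.76 ± 0.11 in Vc+ (log2, SE; limma adjusted p = 0.00323), 0.38 ± 0.08 in Vc- (0.0305) and 0.57 ± 0.09 over both (0.000779).

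B2m codes for the light chain that every class I molecule needs to reach the surface. It had 4586, 5728 and 4441 in Vc+ with Tet1CD, Tet1CD+Dnmt1 and Tet1CD+shDnmt1, against 2946 in Flag+shLuc, 2729 in that labelled Dnmt1, 2772 with shDnmt1 and 2320 with shp53+shDnmt1. In Vc- it had 3513, 3694 and 3694 with Tet1CD, against 3316, 2547, 2701 and 2044. The groups were apart in both media, although in Vc- the control library at 3316 came close to the lowest Tet1CD library at 3513. The difference was 0.79 ± 0.11 in Vc+ (log2, SE; limma adjusted p = 0.0028), 0.36 ± 0.09 in Vc- (0.0433) and 0.58 ± 0.10 over both (0.00116).

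The heavy chains carry the peptide groove. H2-K1 had 491, 423 and 445 in Vc+ with Tet1CD, Tet1CD+Dnmt1 and Tet1CD+shDnmt1, against 251 in Flag+shLuc, 232 in that labelled Dnmt1, 265 with shDnmt1 and 288 with shp53+shDnmt1. In Vc- it had 178, 190 and 180 with Tet1CD, against 162, 179, 161 and 182, and the groups overlapped. The difference was 0.85 ± 0.09 in Vc+ (log2, SE; limma adjusted p = 0.00147), 0.12 ± 0.07 in Vc- (0.285) and 0.49 ± 0.12 over both (0.00804).

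H2-D1 had 1460, 1375 and 1661 in Vc+ with Tet1CD, Tet1CD+Dnmt1 and Tet1CD+shDnmt1, against 858 in Flag+shLuc, 774 in that labelled Dnmt1, 774 with shDnmt1 and 714 with shp53+shDnmt1. In Vc- it had 726, 827 and 745 with Tet1CD, against 708, 668, 641 and 612. The groups did not overlap in either medium, but in Vc- the gap was small. The difference was 0.90 ± 0.10 in Vc+ (log2, SE; limma adjusted p = 0.00147), 0.19 ± 0.07 in Vc- (0.131) and 0.54 ± 0.13 over both (0.00526).

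**Figure D1:**
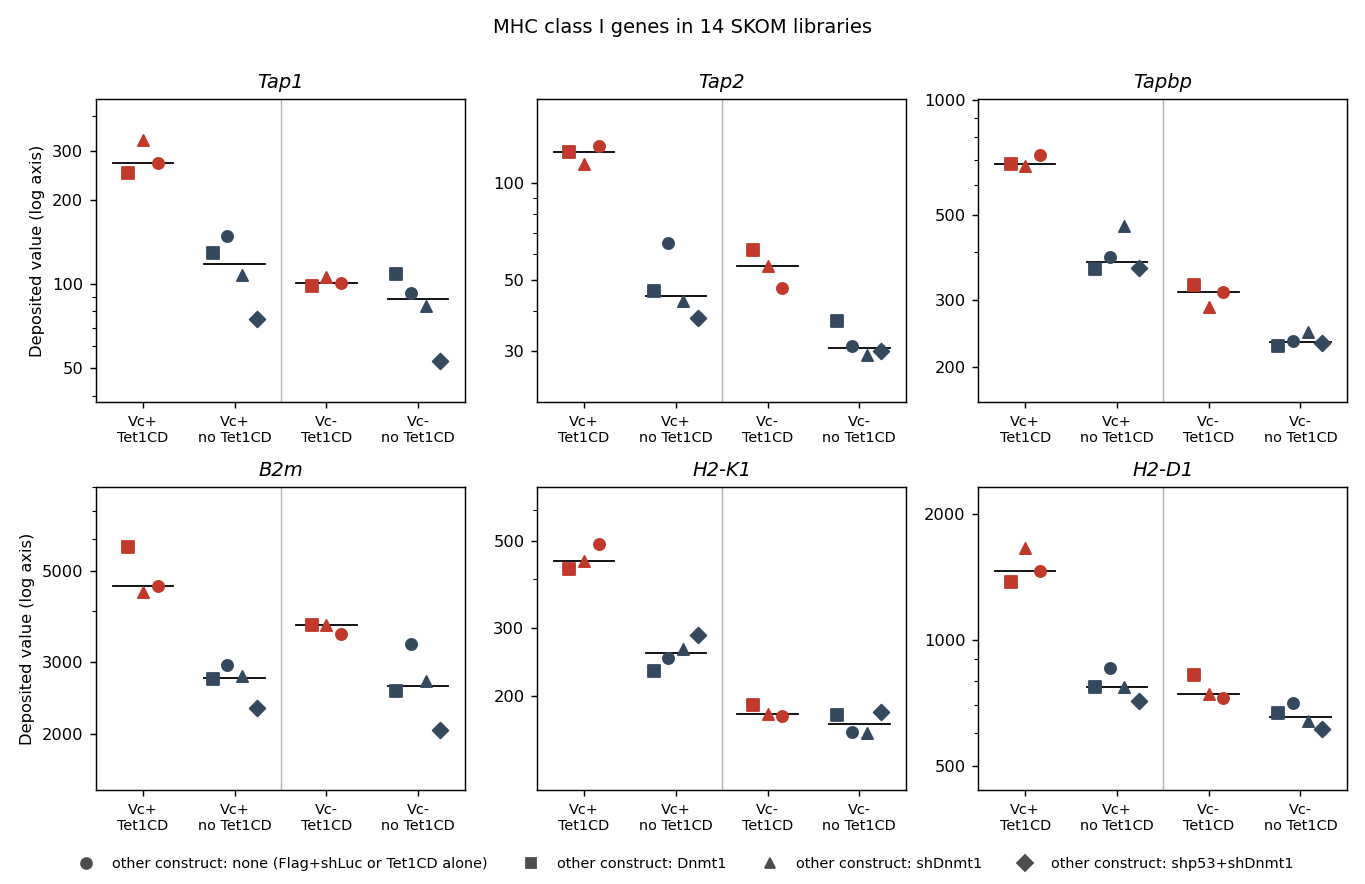
Deposited values (log axis) of the 6 genes in the 14 SKOM libraries, with Tet1CD in red and without it in dark blue, by medium. Each point is 1 library, its shape gives the other construct, and the line is the group median; the red points stand above all blue points for each of the 6 genes in Vc+, and in Vc- for 4 of them, while Tap1 and H2-K1 overlap there.

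All 6 genes were thus higher in every Tet1CD library than in any other of the Vc+ table, where 25.0% of all genes were. In Vc- this held for 4 of the 6, all but Tap1 and H2-K1, against 15.3% of all genes. By limma's test 6 of 6 rose in Vc+ (20.7% of all genes rose and 23.6% fell), whereas in Vc- 3 of 6 rose (7.25% of all genes rose and 7.38% fell), namely Tap2, Tapbp and B2m. Leaving out the Vc- library labelled Dnmt1, or that with Tet1CD+Dnmt1, shDnmt1 or Tet1CD+shDnmt1, left 0 of 6 calls. Among all genes, those fits called only 3, 3, 54 and 37 higher in the same order, against 777 with all 7 libraries. With each of the 7 Vc- libraries left out in turn, the difference stayed at 0.60 to 0.75 for Tap2, 0.31 to 0.47 for Tapbp and 0.27 to 0.49 for B2m. Set against the library with the same other construct, each of the genes was higher in 6 of 6 pairs except Tap1, with 5 of 6; its exception was the Vc- pair with Dnmt1, at 99 with Tet1CD against 109 without. An exact two-sided permutation test of the mean log2 difference within media gave p = 0.000816 for Tap2, Tapbp, B2m and H2-D1. This is the smallest p possible among 1225 arrangements. Only groups that are apart in both media can reach it, so it restates the separation given above. The same exact permutation test gave p = 0.00571 for Tap1 and p = 0.00408 for H2-K1. It takes no account of the other constructs, of which shp53 occurs only without Tet1CD, and its mean difference was 0.80 for Tap1 and 0.67 for B2m, against 0.61 and 0.58 in the model with terms for them. The shares of all genes higher in 6 of 6 pairs, or reaching the smallest permutation p, are not given here, so those counts have no background.

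The increase with Tet1CD was larger in Vc+ than in Vc- for Tap1, H2-K1 and H2-D1. The test of the difference itself, the interaction term of the limma model, gave a further 1.01 ± 0.21 (log2, SE) for Tap1 (adjusted p = 0.0128), 0.72 ± 0.11 for H2-K1 (0.00452) and 0.71 ± 0.13 for H2-D1 (0.00756). These 3 of 6 compare with 8.57% of all genes that were higher by this test and 8.28% that were lower. The interaction did not pass for B2m at 0.44 ± 0.16 (0.0885), Tapbp at 0.38 ± 0.14 (0.103) or Tap2 at 0.54 ± 0.21 (0.116). The genes that rose in Vc- were those whose interaction missed the threshold, and that does not show equal effects in both media. Without the Vc- Flag+shLuc library or the Vc- Tet1CD library, the interaction of Tap1 missed the threshold (adjusted p = 0.0537 and 0.0538 by limma). Of the 4 leukocyte markers with a row in both media, 3 were higher by the same interaction test, with Laptm5 at 2.82 ± 0.11 in Vc+ and 0.97 ± 0.10 in Vc-, while Ptprc at a further 0.80 ± 0.56 missed the threshold (limma adjusted p = 0.36). The part of these markers in the difference was not tested.

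**Figure D2:**
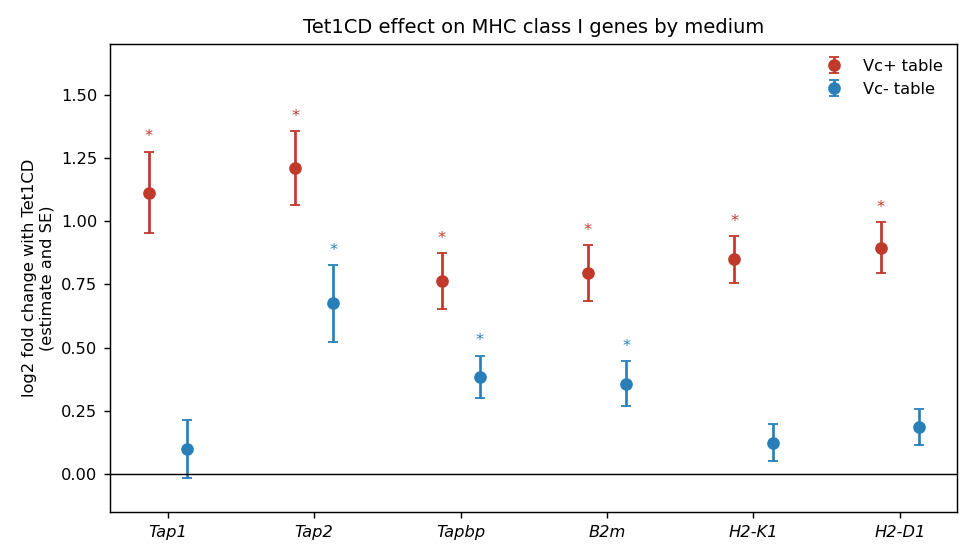
Log2 fold change with Tet1CD of the 6 genes, fitted in the Vc+ table (red) and in the Vc- table (blue), with bars of 1 SE. A star marks an adjusted p under 0.05; Tap1, H2-K1 and H2-D1 have a star only in Vc+.

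Whether the levels themselves depend on vitamin C can only be described, since the tables were normalized separately. The median gene was 0.52 to 0.57 higher in Vc+ than in Vc- on the log2 scale in pairs with the same construct, and ratios were centred on that shift. After centring, no member had the same direction in all 7 pairs and a median of at least 2-fold, which 0.42% of genes did upward and 0.21% downward. In the 3 pairs with Tet1CD the centred median was 0.85 for Tap1, 0.76 for H2-K1, 0.66 for Tapbp, 0.48 for Tap2, 0.48 for H2-D1 and -0.14 for B2m, and no member reached 2-fold (1.47% of genes did). Without centring 5 of the 6 did, all but B2m, whose median was then 0.38, so both the count and the direction of B2m depend on the scaling. In the 4 pairs without Tet1CD the centred median lay between -0.50 for B2m and 0.12 for Tapbp. Without centring the medians of those 4 pairs were above 0 for all 6 genes, with B2m at 0.07 and H2-D1 at 0.25, against -0.32 for H2-D1 after centring.

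B2m was the one gene of the 6 to differ by this rule between SKOM and MEF cells. It was lower in 5 of 5 construct pairs in each medium, with a centred median log2 ratio of -1.87 for Vc+ over MEF and -1.38 for Vc- over MEF. Among all genes 11.0% and 7.69% were lower by the same rule. In Vc+ the B2m values ran from 2320 to 5728, in Vc- from 2044 to 3694 and in the MEF table from 8044 to 19828, with the shift between tables not removed. The highest value of any gene also differed, at 28926 in Vc+, 19681 in Vc- and 38803 in the MEF table. Centring on the median gene does not remove such a difference near the top, and its part was not tested. By rank in its library, B2m had a median percentile of 97.4, 98.6 and 99.3 in the same order. The other 5 genes did not pass in either medium.

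Of 13 activators of class I transcription described here, each with a row in both SKOM tables, 3 rose and 3 fell with Tet1CD, with a median of 0.0011. These shares are near those of all genes, of which 20.3% rose and 24.9% fell. Stat2, a transcription factor of the interferon pathways, rose by 1.16 ± 0.13 (log2, SE), and Irf9, its partner, by 0.79 ± 0.07. Nfkb1 rose by 0.26 ± 0.08. Nfyc and Nfyb, subunits of the factor that binds CCAAT boxes, fell by 0.39 and 0.30, and Creb1, which binds cyclic AMP elements, fell by 0.29. Irf1 had 0.29 ± 0.13 over both media and missed the threshold (limma adjusted p = 0.0834). The RFX genes, which serve the X box of class I and class II promoters, also missed it, with Rfx5 at 0.00 ± 0.06. Nlrc5 was not analysed here.

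Of the antiviral interferon-stimulated genes with a row in both tables, 10 of 11 rose and none fell, where 20.3% of all genes rose. Their median was 1.65, against 0.58 for the 6 class I genes, a difference that was not tested. Xaf1 rose by 1.75 ± 0.11, whereas Ifi44 at 0.73 and Eif2ak2 at 0.85 lay below Tap2 at 0.94, and Ifit2 at 0.29 ± 0.15 did not pass. In Vc+ 19 of 19 rose (20.7% of all genes did), with a median of 1.89, against -0.07 over all genes. Of the genes typical of interferon gamma, 3 of 3 rose over both media, among them the GTPase gene Irgm1 at 1.44 ± 0.20, and 11 of 11 in Vc+. A gene has a row only with at least 32 in some library of its table. Oas2, Rtp4, Zbp1, Ddx60, Irf7, Gbp3 and Gbp7 stayed below 32 in every Vc- library without Tet1CD. Their Vc- rows thus came through the Tet1CD libraries. The counts and medians over both media, including the 1.65 set against 0.58, are partly set by that minimum. The same limit may hold for the counts and the median in Vc+, where 19 antiviral genes had a row, against 11 in Vc-. Genes typical of interferon gamma had 11 rows in Vc+, against 3 in Vc-. Of the receptors and kinases 5 of 8 rose and none fell, with Jak2 at 0.54 ± 0.15 and Ifngr2 at 0.40 ± 0.10. None of the 7 listed interferon genes had a row, so the ligands were not analysed here.

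Among the other steps of the class I route, 2 of 9 chaperones and trimming enzymes of peptide loading rose, a share near the 20.3% of all genes, namely Calr (calreticulin) by 0.32 ± 0.07 and Uggt1, which checks the folding of glycoproteins, by 0.24 ± 0.05, while the glucosidase gene Ganab fell by 0.17. Of the 6 genes of the immunoproteasome and the proteasome activator none rose over both media and Psme3 fell by 0.35. Psmb10, the remaining inducible catalytic subunit, had values of 63 to 68 in Vc+ with Tet1CD, against 64 to 80 without, and 19 to 22 in Vc- with Tet1CD, against 32 to 41 without. It was thus lower in Vc- without overlap, and its difference of -0.35 ± 0.14 over both media missed the threshold (limma adjusted p = 0.0518). Psme2, a subunit of the interferon-inducible activator PA28, passed only in the Vc+ fit, with 0.45 ± 0.11 (limma adjusted p = 0.0195). Of the 3 standard catalytic subunits 2 fell, Psmb6 by 0.20 and Psmb7 by 0.16. Of 29 other proteasome subunits 4 fell and none rose, and of 7 cytosolic peptidases 3 fell and none rose. Their medians were -0.13 and -0.14, and among all genes 24.9% fell and 20.3% rose.

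Further class I chains have few rows. H2-Q4 rose in Vc+, with 171 to 195 with Tet1CD, against 84 to 108 without (0.82 ± 0.12; limma adjusted p = 0.00302), and overlapped in Vc-. In Vc+ alone H2-T22 rose by 1.12 ± 0.18 and H2-Q6 fell by 1.15, while H2-T23 at 0.07 ± 0.30 and Cd1d1 at -0.47 ± 0.22 did not pass. Of the class II genes, H2-Ab1 had a row in Vc+, with 17 to 42 with Tet1CD, against 1 to 12 without, and rose by 1.28 ± 0.41 (limma adjusted p = 0.046). A row needs at least 32 in some library, which H2-Ab1 reached only with Tet1CD, so its rise is partly set by that minimum. Reads of the class I chains may be shared with each other and with H2-D1. Of 33 other genes of the class II and III region on chromosome 17, 1 rose, Flot1 by 0.58 ± 0.09. In the same list 14 fell, among them Notch4 by 1.03 and Ddah2 by 0.76. Among all genes 20.3% rose and 24.9% fell.

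**Figure D3:**
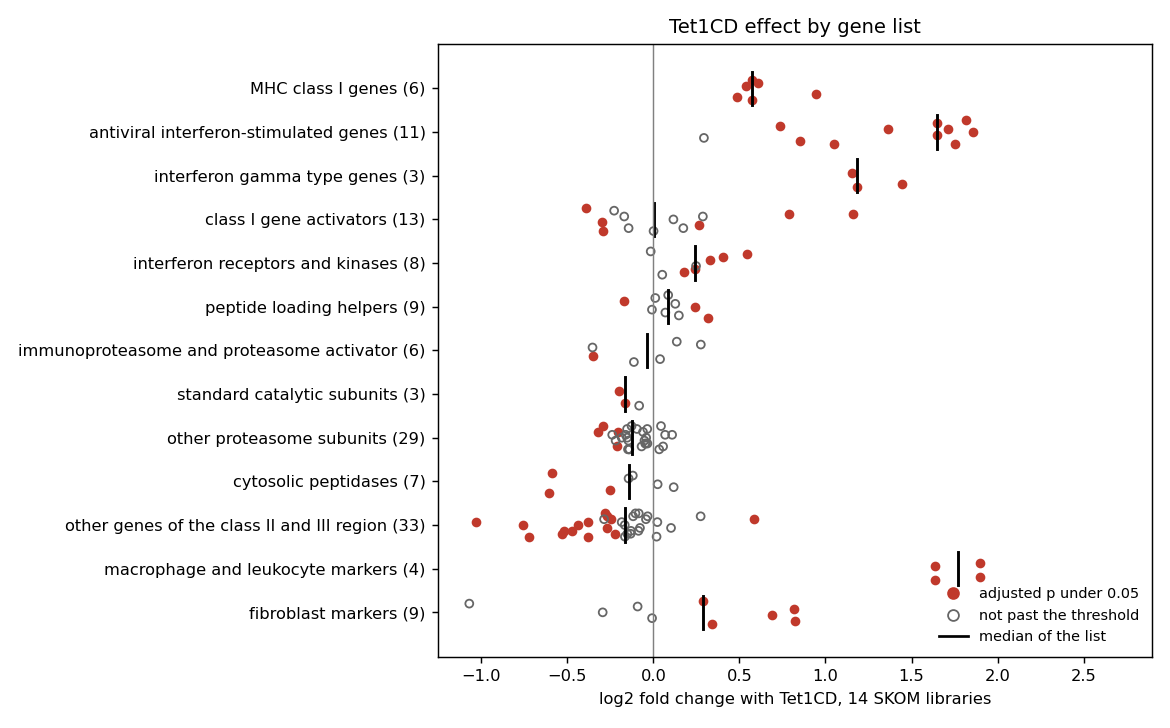
Log2 fold change with Tet1CD over the 14 SKOM libraries, 1 point per gene, by gene list, with the number of genes tested in brackets and the list median as a bar. Filled red points passed an adjusted p of 0.05; the class I genes lie at 0.49 to 0.94, the antiviral genes reach 1.86, and the proteasome lists lie around or below 0.

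The 6 genes varied together across the SKOM libraries. After centring by medium, Pearson's r between 2 members over the 14 libraries ran from 0.72 to 0.93 in 15 pairs, as a description, since the libraries share the Tet1CD contrast and the normalization. The genes most like the mean of the 6 were Capg, which codes for an actin-capping protein, with r = 0.99, Taok3, a kinase gene, with r = 0.99, and then Chst11, Slc9a3r2, Cyb5r3, Gas6, Ecm1 and Lrrc8d. The median over 7161 candidates was -0.16. Capg had 893 to 1059 in Vc+ with Tet1CD, against 209 to 331 without, and 337 to 391 in Vc-, against 204 to 282 without.

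Knockdown or expression of Dnmt1 moved none of the 6 genes past the threshold in SKOM cells. With shDnmt1 the differences lay between -0.15 ± 0.18 for Tap2 and 0.03 ± 0.11 for Tapbp (log2, SE), and limma called 0.0187% of all genes lower and 0.0% higher. With the construct labelled Dnmt1, whose expression the values do not show, they lay between -0.04 and 0.02, and limma called 0.0% of genes in either direction. At an unadjusted p under 0.05 there were 383 genes for shDnmt1 and 84 for Dnmt1. The effect of Tet1CD did not differ by shDnmt1 for any of the 6 at the threshold, which 0.0% of genes passed (305 at an unadjusted p under 0.05); for Tap1 the interaction was 0.47 ± 0.46.

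The p53 hairpin went with low Tap1. TAP1 is known from human cells as a gene that p53 induces. In MEFs Tap1 had 10 with shp53, against 111 in control, and 30 with shp53+shDnmt1, against 87 with shDnmt1 alone, which are log2 ratios of -2.95 and -1.39. Only 7 of 9928 genes had a lower ratio of shp53 over control. Tap1 was the one member at least 1.5-fold lower in both of these separate pairs, as 6.06% of genes were. In SKOM cells the pairs had 75 with shp53+shDnmt1, against 108 with shDnmt1, in Vc+, and 53 against 84 in Vc-. Tap1 was thus lower with shp53 in 4 of 4 pairs, and so were Tapbp, B2m and H2-D1, as 20.9% of all genes were. H2-K1 was higher in 4 of 4, at 297 against 254 and 315 against 287 in MEFs, and Tap2 was lower in 2 of 4. The B2m difference between MEF shp53 and control was 8044 against 8045. The limma fit over the SKOM libraries gave -0.73 ± 0.29 for Tap1, which did not pass (adjusted p = 0.42, unadjusted 0.026); 0.00934% of genes were called lower and 0.0% higher, with 1129 at an unadjusted p under 0.05. The 7 leukocyte markers with a MEF row summed to 589 with shp53, against 257 in control, with 7 of 7 higher, and to 119 with shp53+shDnmt1, against 1105 with shDnmt1, with 7 of 7 lower. Their part in the Tap1 values was not tested.

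**Figure D4:**
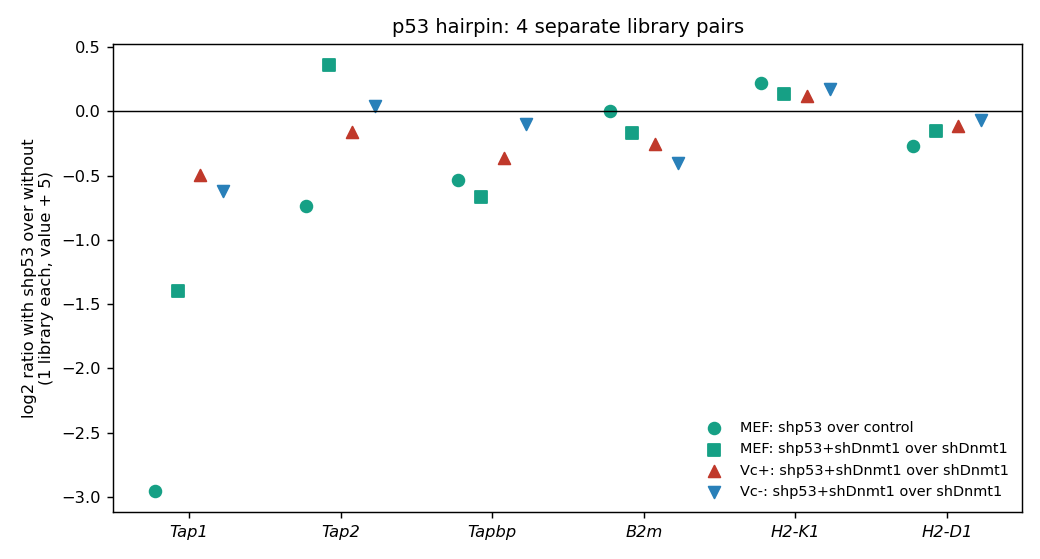
Log2 ratio of libraries with shp53 over those without it for the 6 genes in 4 separate pairs of libraries (2 in MEFs, 1 in Vc+, 1 in Vc-), with 5 added to each value. Tap1 is below 0 in 4 of 4 pairs and reaches -2.95 in the MEF pair with control, while H2-K1 is above 0 in 4 of 4.

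In MEFs 1 library was labelled Tet1CD, and no test was made. Tet1 had no row in the MEF table, so the values do not show that the construct was expressed. Tapbp had 448 with Tet1CD, against 228 in control, and H2-K1 423, against 254, log2 ratios of 0.96 and 0.72. These 2 of 6 were at least 1.5-fold higher, as 4.81% of all genes were. B2m had 10839 with Tet1CD, against 8045 in control, and H2-D1 had 1009, against 734. Tap1, at 133 against 111, and Tap2, at 91 against 80, came closest to the control, whereas Tap2 had the highest increase of the 6 in SKOM cells. The leukocyte marker sum of this library was 1549 over 7 genes, against 257 in control, with 7 of 7 higher, and its part was not tested. The sum was 1049 in the library labelled Dnmt1 and 1105 with shDnmt1. In the Tet1CD library, 35.8% of ranks held another value than in the control library.

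The 5C library had the highest value of all 6 genes in the MEF table. Tapbp had 1449 in 5C, against 228 in MEF control, and H2-K1 1509, against 254, log2 ratios of 2.64 and 2.55. Tap2 had 337, against 80, Tap1 436, against 111, and B2m 19828, against 8045. These 5 of 6 were at least 2-fold higher, as 20% of all genes were, and H2-D1 had 1228, against 734. Of the 6 genes of the immunoproteasome and the proteasome activator, 4 were at least 2-fold higher in 5C and 1 was at least 2-fold lower. Among all genes 27.4% were at least 2-fold lower in 5C. Psmb10 had 479, against 34 in control, Psme1 1106, against 220, and Psme2 1172, against 150. Of the standard catalytic subunits 1 of 3 was 2-fold higher and of the other proteasome subunits 11 of 29, with none 2-fold lower. The interferon-stimulated gene Isg15 had 903, against 37, whereas Irf1 had 37, against 40. The library stood apart from all others in this table, with 97.1% of ranks unlike those of control and the highest leukocyte marker sum, 5454, with Cd68 at 956, against 33 in control. It is 1 library whose cells the labels describe no further than the header X5CDay4, and no day is given for MEF control. The part of the leukocyte markers in its class I values was not tested.

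**Figure D5:**
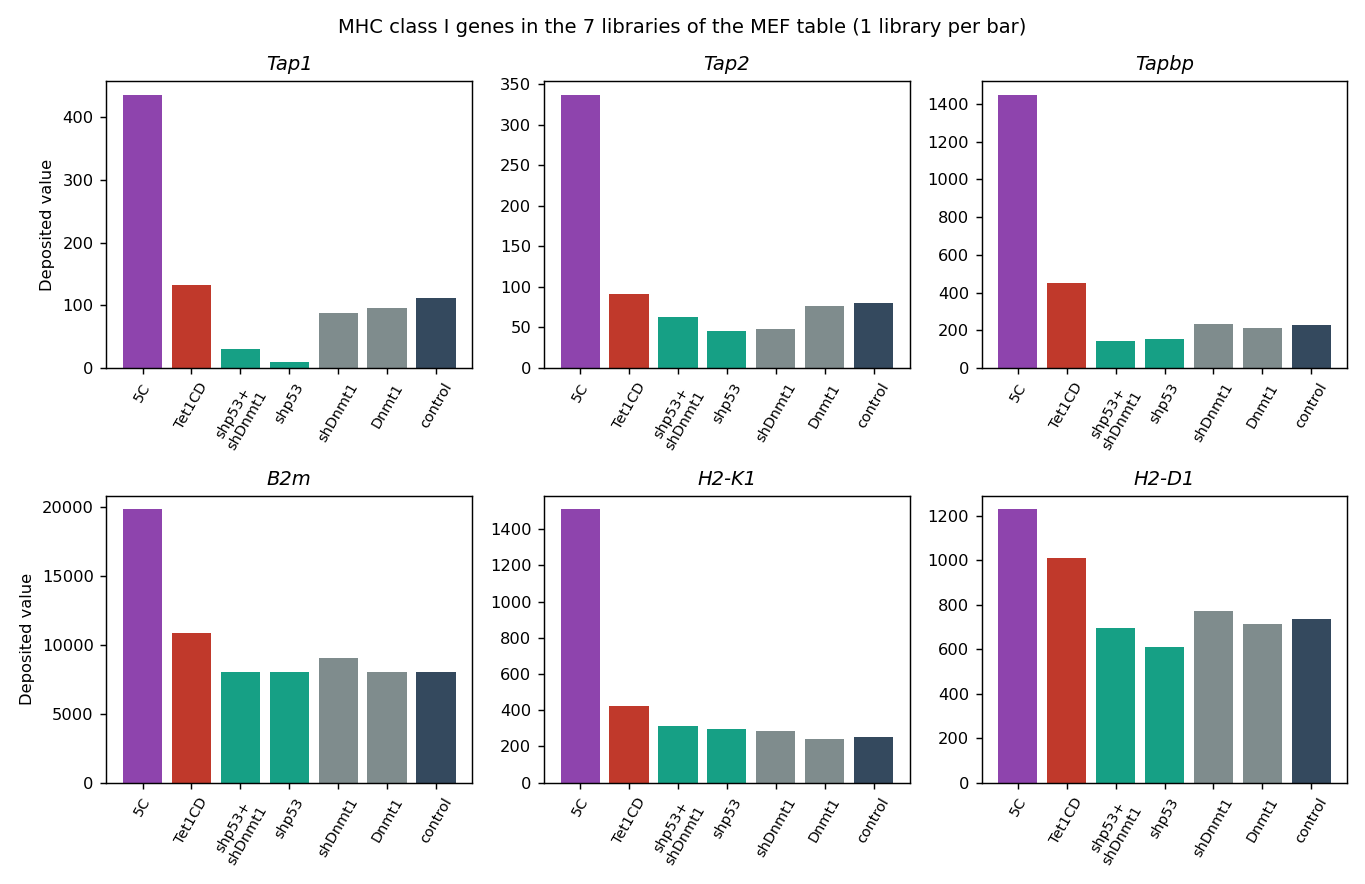
Deposited values of the 6 genes in the 7 libraries of the MEF table, 1 bar per library on a linear axis from 0. The 5C bar is the highest for each of the 6 genes, and Tap1 falls to 10 with shp53 and 30 with shp53+shDnmt1, against 111 in control.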

How the data were processed

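RNA of mouse embryonic fibroblasts and of SKOM cells was extracted with Trizol and made into libraries with a TruSeq kit, per the labels' protocols. Bowtie, RSEM and mm10 are named, per the submitters' processing notes. How reads were counted by strand and how values were normalized is not given in the sources used here. What the authors deposited is a score: whole numbers already normalized within each table, with a ceiling that 10 genes reach (9 in MEF Tet1CD), so changes near it are limited. Depth is unknown, so no counting interval was computed, and the number of libraries limits the precision. Each gene has at least 32 in some library of its table. All value columns were used.

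Groups came from the sample titles. Values were transformed as log2(value + 5), which understates changes of low genes, and genes averaging 10 or more were tested with limma 3.58.1 (R 4.3.3, empirical Bayes with an intensity trend) at a Benjamini-Hochberg adjusted p under 0.05 over all genes tested. The model over 14 SKOM libraries had terms for medium, Tet1CD, Dnmt1, shDnmt1 and shp53 and 8 residual degrees of freedom, separate tables left 2, and the models of interaction 4 with medium and 6 with shDnmt1. The residual spread includes any departure from additivity. MEF effects are ratios between 2 libraries, for 9928 genes averaging 50 or more, with 2-fold in 1 pair or 1.5-fold in both separate pairs (also 1.5-fold for Tet1CD). Nothing was tested between tables. The fits were tested on simulated data.

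The members and lists were chosen with earlier results of these data known. One gene of the list of activators is not reported here and was left out of its counts. All members are named, and leukocyte markers without a row are named for that lack. Of each other list, up to 4 genes with the largest change past the threshold for Tet1CD in SKOM cells, or otherwise up to 2 with the smallest p, were eligible, together with the 8 genes most like the members' mean (mean value at least 100). Genes named beyond that rule or for the listing minimum (Psme2, Psme1, Irf1, Rfx5, Laptm5, Isg15, H2-T22, H2-T23, H2-Q6, H2-Ab1, Cd1d1, Cd68, Ifi44, Eif2ak2, Ifit2, Vim, Fn1, Lum, Dcn, Pdgfra, Oas2, Rtp4, Zbp1, Ddx60, Irf7, Gbp3 and Gbp7) were chosen after their values were seen. Alternatives were other pseudocounts (1 and 20), a minimum mean of 50, no intensity trend, median centring and leaving out each library.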

Additional observations from a re-analysis of the deposited data

Results flagged for a closer look

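The effect of Tet1CD differed between the media for 3 of the 6 genes by the interaction term of the limma model over the 14 SKOM libraries. Tap1 rose by a further 1.01 ± 0.21 on the log2 scale in Vc+ compared with Vc- (adjusted p = 0.0128), and was higher with Tet1CD in 3 of 3 pairs in Vc+ and in 2 of 3 in Vc-. The further increase was 0.72 ± 0.11 for H2-K1 (adjusted p = 0.00452) and 0.71 ± 0.13 for H2-D1 (adjusted p = 0.00756), and both were higher in 3 of 3 pairs in each medium. The difference is between effects measured within separately normalized tables. Leukocyte marker sums differed in the same direction, although over unlike sets of genes. Over 5 genes in Vc+ they were 2449 to 3250 with Tet1CD, against 338 to 493 without. Over 4 genes in Vc- they were 633 to 735 with Tet1CD, against 302 to 400 without. The part of these markers was not tested.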

How the results depend on the processing

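The count of 6 of 6 genes higher with Tet1CD held over the 14 SKOM libraries and in Vc+ under every alternative run, including each library left out. In Vc- the count was 3, which became 1 without the intensity trend (Tap2 remained) and 0 to 4 with a library left out (0 without the Dnmt1, Tet1CD+Dnmt1, shDnmt1 or Tet1CD+shDnmt1 library, 4 without the Flag+shLuc or Tet1CD library, where H2-D1 passed too). The interaction with medium passed in 14 of 14 such fits for H2-K1 and H2-D1 and in 12 of 14 for Tap1, and for Tapbp in 2 of 14. Without centring, 5 members rather than 0 passed 2-fold for Vc+ over Vc- in the 3 Tet1CD pairs, since the tables' medians differ by construction. No value past its threshold changed sign. Without centring, directions of values that passed no threshold turned for Vc+ over Vc-: the B2m median was 0.38, against -0.14 centred, in the 3 Tet1CD pairs and 0.07, against -0.50 centred, in the 4 others, where H2-D1 had 0.25, against -0.32 centred. Over all genes, 777 rose and 791 fell with Tet1CD in Vc-, which became 204 and 100 without the intensity trend, 3 and 2 without the Vc- Dnmt1 or Tet1CD+Dnmt1 library, and 54 and 19 or 37 and 18 without the shDnmt1 or Tet1CD+shDnmt1 library. Without the Vc- Flag+shLuc or Tet1CD library, 1195 or 1202 fell. In Vc+ the 2483 genes that rose and 2836 that fell became 1186 and 1049 without the library labelled Dnmt1 and 1146 and 1085 without Tet1CD+Dnmt1. For the interaction with medium, 918 genes were higher and 887 lower, which became as few as 450 and 311, both without the Vc- Tet1CD+shDnmt1 library. The MEF ratios were also centred on the pair median, an alternative chosen after seeing the data, with the same counts of members. The labels give no replicate numbers, so libraries were paired by construct: with a block for each of the 6 pairs that differ only in Tet1CD, 6 of 6 members were higher, as they were without the shp53 libraries. With 1 library per construct combination and no depth, small effects of shDnmt1, the construct labelled Dnmt1 and shp53 could not be resolved.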
